A study of Neurospora crassa with 18 samples.

Results

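The comparison described here asks which transcripts of the filamentous fungus *Neurospora crassa* depended on the gene *nuc-1* when the fungus was deprived of phosphate. It covers 6 of the 18 libraries of the series, chosen by their labels: 3 libraries of wild type and 3 of the Δ*nuc-1* strain, all harvested after 4 h at 0 mM phosphate in Experiment 2. The other libraries served to compare phosphate-starved (0 mM) with phosphate-fed (7 mM) wild type after 4 h, called Experiment 1, and Δ*nuc-3* with wild type after 12 h without phosphate, called Experiment 3. In all 6 libraries the RNA came from mycelium grown from conidia in Vogel's minimal medium, washed, and shifted to Fries medium lacking phosphate under constant light. The wild type is *mat A*, and the mutant is *mat a* with *nuc-1* replaced by a hygromycin resistance cassette (*nuc-1*::HygR). Mutant and wild type therefore differ in mating type as well as in *nuc-1*, and these differences cannot be told apart in any value below. A single deletion strain was used, with no strain in which *nuc-1* was put back, and each library came from an independently inoculated culture.

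Fungi that run short of phosphate release it from outside and inside the cell with secreted phosphatases and nucleases, take it up with high-affinity transporters, and replace phospholipids with lipids that hold no phosphate. In *N. crassa* this response is under the control of NUC-1, a basic helix-loop-helix transcription factor related to Pho4 of *Saccharomyces cerevisiae*. When phosphate is ample, NUC-1 is held inactive by the cyclin PREG and the cyclin-dependent kinase MDK-1 (called PGOV in older work), and during starvation the ankyrin repeat protein NUC-2 inhibits that pair.

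Expression was measured by poly(A) RNA-seq, and the deposited values are TPM, the share of a library's transcripts that a gene holds, corrected for transcript length, so that levels of different genes can be set side by side. TPM hold no counts, the depth of each library is unknown, and a value listed at 0 sets no limit. The transcripts of a gene were summed and each library was divided by a median-of-ratios factor; these rescaled TPM are given in the order of replicates 1, 2 and 3. Across the 8037 genes tested, libraries of one strain correlated at 0.976 to 0.984 (Pearson, log2 values) and libraries of different strains at 0.925 to 0.962. 1 library in each strain stood somewhat apart. Δ*nuc-1* replicate 3 had the lowest correlation with wild type (0.925 to 0.938, against 0.939 to 0.962 for the other mutant libraries), and wild-type replicate 1 had the highest wild-type level of many genes that starvation induces.

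Few genes differed by a large factor between Δ*nuc-1* and wild type. A call at 4-fold required a limma adjusted p under 0.05, means of the rescaled TPM that differed by a factor of 4 or more, and 10 or more TPM, as deposited, in the mean of one strain. By this rule 169 genes (2.1%) were called: 66 genes (0.821% of those tested) were lower and 103 (1.28%) were higher in Δ*nuc-1* than in wild type. With the factor relaxed to 2 or more, 277 genes (3.45%) were lower and 367 (4.57%) higher. The adjusted p alone was under 0.05 for 920 lower genes (11.4%) and 910 higher genes (11.3%), out of the same 8037. All replicates of one strain lay above all replicates of the other for 1678 genes higher in wild type (20.9%) and 1715 higher in the mutant (21.3%). With 3 libraries on each side the smallest p of an exact permutation test is 0.1, so the tests below are those of limma across all genes. Near the 4-fold limit, *uc-8* (4.01-fold lower) and NCU09137 (4.03-fold higher) were just inside, and NCU09306 (3.98-fold lower) and NCU03321 (4.00-fold higher, just under 4) were just outside.

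The losses and the gains differed in how far they rested on single libraries. Of the 66 lower genes, 41 kept the call when each library was left out in turn. Of the other calls, 24 ended without wild-type replicate 1. That was the highest wild-type library for 57 of the 66 (2879 of 8037 over all genes). Of the 103 higher genes, 14 kept the call in every such repeat. Δ*nuc-1* replicate 3 was the highest mutant library for 101 of the 103 (3516 of 8037 over all genes), and without it 14 genes were called higher at 4-fold. 96 of the 103 were then still called at 2-fold, with a median ratio of 3.41 and a lowest ratio of 2.80 among the 103. Leaving out wild-type replicate 3 gave 68 higher genes. Rescaling also mattered: with the TPM left as deposited, the median log2 fold change over the tested genes went from 0.005 to -0.168, and 83 genes were lower and 63 higher, so that 43.2% of calls were higher in place of 60.9%.

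**Figure D1:**
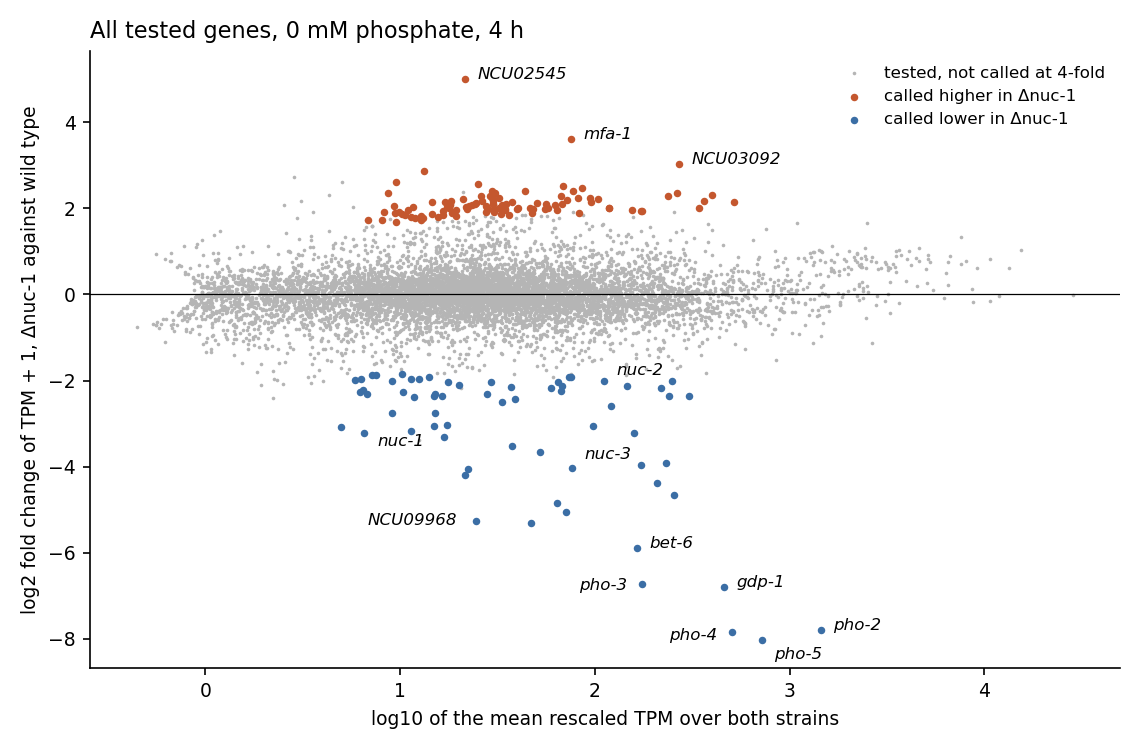
Each point is 1 of the 8037 tested genes, with the log10 of the mean rescaled TPM over both strains on the horizontal axis and the limma log2 fold change of TPM + 1 (Δ*nuc-1* against wild type) on the vertical axis. The 66 genes called lower at 4-fold (blue) reach -8.02 at *pho-5*, while the 103 called higher (orange) form a narrower band above 0, with NCU02545 at 5.01 and *mfa-1* at 3.61 at its top.

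The deleted gene itself came down as its label requires. *nuc-1* (NCU09315), on chromosome I from 4278717 to 4281906, had 32.9, 37.5 and 24.4 rescaled TPM in wild type and 2.31, 2.22 and 2.14 in Δ*nuc-1*. The residual signal was low and even in the mutant libraries, and the groups were far apart: expression was 14.2-fold lower (limma log2 fold change -3.32, standard error 0.18, adjusted p = 2.5e-05). In bulk mycelium, fewer hyphae that express a gene and less RNA per hypha cannot be told apart, here or for any gene below. During starvation of wild type in Experiment 1, *nuc-1* was itself nearly level (0 mM to 7 mM ratio 1.04).

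Of the other regulators examined, *nuc-2* and *nuc-3* fell in the mutant, while for the inhibitory pair the test was not passed. *nuc-3* (NCU03077) encodes the second transcription factor studied in this series. It had 165, 142 and 126 rescaled TPM in wild type and 8.76, 5.96 and 9.25 in Δ*nuc-1*, and the lowest wild-type library was far above the highest mutant library. The decrease was 18.1-fold (limma log2 fold change -4.03, standard error 0.18, adjusted p = 8.0e-06), against an increase of 18.3-fold by starvation in Experiment 1. *nuc-2* (NCU11426) had 194, 199 and 148 in wild type and 46.1, 44.3 and 40.5 in the mutant, where the libraries agreed closely with each other. It was 4.13-fold lower (limma log2 fold change -2.01, standard error 0.15, adjusted p = 0.00018), a ratio close to the limit that became 3.97 without wild-type replicate 1, 3.91 without wild-type replicate 2 and 3.99 without Δ*nuc-1* replicate 3. The cyclin gene *preg* had 75.3 ± 7.72 rescaled TPM (SD, n = 3) in wild type and 69.6 ± 4.78 in the mutant, and its strains overlapped (limma adjusted p = 0.58). The kinase gene *mdk-1* was at 82.5 ± 4.00 and 82.8 ± 3.93, likewise overlapping (limma adjusted p = 0.98). The mitogen-activated protein kinase gene *mak-2* was at 0.749 of the wild-type level (limma adjusted p = 0.04), short of 2-fold.

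The genes beside *nuc-1* were examined because a cassette can affect its neighbours. NCU09314, annotated 25 bp away from *nuc-1*, was listed at 0 in all wild-type libraries and at 5.84, 6.62 and 4.69 rescaled TPM in Δ*nuc-1* (limma adjusted p = 0.00024). It stayed under 10 TPM and was not called, and it was also listed at 0 in the wild-type libraries of Experiment 1. On the other side, 2320 bp away, NCU09316 was 1.63-fold higher in the mutant (limma adjusted p = 0.011), also without a call. Among the 18 tested genes within 50 kb of *nuc-1*, 0 were called at 2-fold, and 7 (38.9%) had an unadjusted limma p under 0.05, a share near the 36.2% over all genes. Among the 75 within 200 kb, 2 were higher (4.57% over all genes) and 1 lower (3.45%) at 2-fold. The higher count was 1 without wild-type replicate 3 or Δ*nuc-1* replicate 3, and the lower one is *nuc-3*, which lies on the same chromosome. The part of the cassette in these values was not tested.

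Phosphatase genes were far lower in the mutant. Of the 5 examined, 3 were called lower at 4-fold (0.821% over all genes) and 4 at 2-fold (3.45%). *pho-2* (NCU01376), which encodes the repressible alkaline phosphatase, had 3539, 2578 and 2547 rescaled TPM in wild type and 11.1, 11.5 and 13.1 in Δ*nuc-1*. Wild-type replicate 1 was the highest and the mutant libraries were nearly identical. Expression was 242-fold lower (limma log2 fold change -7.79, standard error 0.16, adjusted p = 2.4e-08), and with each library left out in turn the log2 fold change lay between -7.87 and -7.63. *pho-3* (NCU08643), the gene of a repressible acid phosphatase, had 554, 211 and 273 in wild type and 1.44, 2.09 and 2.57 in the mutant, a 170.1-fold decrease (limma log2 fold change -6.73, standard error 0.33, adjusted p = 1.2e-05). NCU09631, which holds an alkaline phosphatase domain, had 139, 71.5 and 67.1 in wild type and 0.718, 1.51 and 1.58 in the mutant and was 72.9-fold lower (limma log2 fold change -5.31, standard error 0.29, adjusted p = 2.5e-05). The strains did not overlap for any of these 3 genes. *pht-1* was 3.74-fold lower (60.6 ± 7.36 against 16.2 ± 3.21 rescaled TPM; limma adjusted p = 0.00059), a call at 2-fold. The inorganic pyrophosphatase gene *ipp-2* stayed under 10 TPM in both strains and was not called (2.32-fold lower, limma adjusted p = 0.021).

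All 5 phosphate transporter genes examined were called lower at 4-fold (0.821% over all genes). *pho-5* (NCU08325) encodes a high-affinity phosphate permease. It had 1548, 1354 and 1413 rescaled TPM in wild type and 4.38, 4.22 and 4.98 in Δ*nuc-1*, both narrow groups. The decrease was 317-fold (limma log2 fold change -8.02, standard error 0.12, adjusted p = 5.7e-09), and this was the lowest log2 fold change of all genes tested. *pho-4* (NCU09564), the sodium-phosphate symporter gene, had 1032, 925 and 1072 in wild type and 3.13, 3.10 and 4.08 in the mutant and was 294-fold lower (limma log2 fold change -7.84, standard error 0.13, adjusted p = 9.6e-09). NCU09767, a major facilitator gene with homology to phosphate transporters, had 177, 118 and 123 in wild type and 2.74, 3.11 and 3.70 in the mutant, a 43.7-fold decrease (limma log2 fold change -5.05, standard error 0.18, adjusted p = 2.0e-06). In *trm-50* (NCU01055), a chromate transporter gene, the mutant libraries spread widely (1.28, 3.05 and 7.67 rescaled TPM) below a narrow wild-type group (141, 108 and 123), and the decrease was 31.0-fold (limma log2 fold change -4.85, standard error 0.41, adjusted p = 0.00036).

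*pho-7* (NCU07375) behaved differently from the other transporters in its response to starvation, where the 0 mM to 7 mM ratio of Experiment 1 was 0.948 (limma adjusted p = 0.55). It nonetheless fell in the mutant. Wild type had 180.2, 324 and 210.2 rescaled TPM and Δ*nuc-1* had 43.2, 49.3 and 66.0, with no overlap, a 4.51-fold decrease (limma log2 fold change -2.13, standard error 0.24, adjusted p = 0.0012). Wild-type replicate 2 was the highest library, and without it the ratio was 3.69, under the 4-fold limit and still called at 2-fold.

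**Figure D2:**
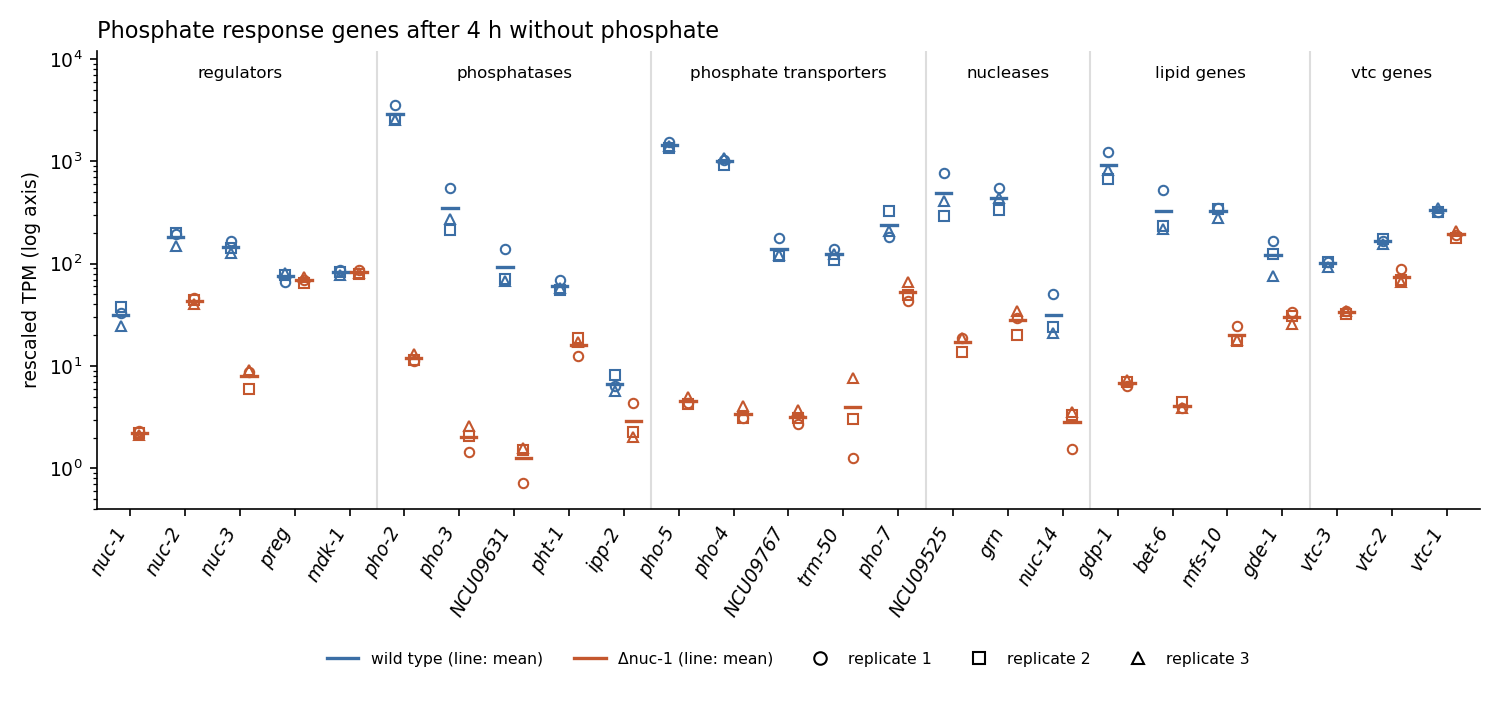
Rescaled TPM on a log axis for regulators, phosphatases, phosphate transporters, nucleases, lipid genes and *vtc* genes in each library (circle, square and triangle for replicates 1, 2 and 3), with a line at the mean of 3 libraries, wild type in blue and Δ*nuc-1* in orange. The widest gaps between the strains are those of the permease genes *pho-5* and *pho-4*, and they overlap for *preg* and *mdk-1*.

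The 3 nuclease genes examined were all called lower at 4-fold (0.821% over all genes). NCU09525, annotated as a secreted protein and an extracellular deoxyribonuclease, had 776, 295 and 407 rescaled TPM in wild type and 18.7, 13.9 and 18.6 in Δ*nuc-1*. It was 28.9-fold lower (limma log2 fold change -4.67, standard error 0.31, adjusted p = 0.00011). *grn* (NCU01045), the gene of a ribonuclease of the T1 type, had 543, 331 and 439 in wild type and 29.5, 20.1 and 34.2 in the mutant, a 15.7-fold decrease (limma log2 fold change -3.92, standard error 0.23, adjusted p = 4.1e-05). It overlaps the annotated gene NCU16971 by 262 bp, which was also called lower (5.85-fold) although its starvation ratio was 0.860, and reads of the shared stretch cannot be told apart without strand. *nuc-14* (NCU09788) had 50.03, 24.3 and 21.1 in wild type and 1.56, 3.34 and 3.58 in the mutant and was 11.2-fold lower (limma log2 fold change -3.04, standard error 0.34, adjusted p = 0.0013). Wild-type replicate 1 was the highest library for all 3 nuclease genes, and each kept its call without it.

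Among 12 genes of lipid metabolism, 4 were called lower at 4-fold (0.821% over all genes) and 0 higher (1.28%). *gdp-1* (NCU10038), a glycerophosphodiester phosphodiesterase gene whose product frees phosphate from phospholipid head groups, had 1241, 669 and 823 rescaled TPM in wild type and 6.43, 6.92 and 7.27 in Δ*nuc-1*. The mutant libraries were close together and expression was 132-fold lower (limma log2 fold change -6.81, standard error 0.21, adjusted p = 6.8e-07). *bet-6* (NCU03032) encodes the synthase of a betaine lipid, a membrane lipid without phosphate. It had 527, 231 and 220.4 in wild type, with replicate 1 more than 2-fold above the others, and 3.88, 4.47 and 3.90 in the mutant, a 79.8-fold decrease (limma log2 fold change -5.89, standard error 0.30, adjusted p = 1.6e-05). *mfs-10* (NCU04809), predicted to encode a transporter of phospholipids, had 353, 345 and 282 in wild type and 24.8, 17.7 and 17.8 in the mutant, 16.2-fold lower (limma log2 fold change -3.96, standard error 0.16, adjusted p = 4.7e-06). The glycerophosphocholine phosphodiesterase gene *gde-1* (NCU01747) was 4.06-fold lower (wild type 166, 123 and 76.1, Δ*nuc-1* 33.4, 30.9 and 25.6; limma log2 fold change -1.93, standard error 0.26, adjusted p = 0.0023), and the ratio became 3.32 without wild-type replicate 1 and 3.79 without Δ*nuc-1* replicate 3. NCU05859, which has a phospholipase domain, was 5.44-fold lower (limma adjusted p = 0.002) but under 10 TPM, so that it was not called. Other lipid genes induced by starvation in Experiment 1 had no call at 2-fold, among them *cea-6* at a ratio of 0.614 (limma adjusted p = 0.019) and *chol-11*, a gene of phosphatidylethanolamine methylation, at 1.58 (limma adjusted p = 0.078). For *chol-11* the wild-type mean was 4.23 rescaled TPM here, against 48.4 at 0 mM and 11.9 at 7 mM in Experiment 1, which was rescaled on its own. Whether it was induced in the wild type used here cannot be told, since Experiment 2 holds no 7 mM library.

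Genes that act on nucleotides went both ways, with 1 of 7 lower (0.821% over all genes) and 2 higher (1.28%) at 4-fold. Experiment 1 called 5 of the 7 higher by starvation and 2 lower. The predicted uracil phosphoribosyltransferase gene *uc-8* (NCU06261) had 155, 84.4 and 113 rescaled TPM in wild type and 28.6, 28.7 and 30.8 in Δ*nuc-1*, without overlap. It was 4.01-fold lower (limma log2 fold change -1.92, standard error 0.20, adjusted p = 0.0011), and the ratio became 3.37 without wild-type replicate 1, 3.95 without Δ*nuc-1* replicate 1 and 3.96 without Δ*nuc-1* replicate 2. *inl-13* (NCU04069), a 3′(2′),5′-bisphosphate nucleotidase gene that was listed at 0 in every 7 mM library of Experiment 1, had 75.8, 66.7 and 62.2 in wild type and 32.9, 13.5 and 45.0 in the mutant. It was 2.24-fold lower (limma adjusted p = 0.036) and called at 2-fold, a smaller factor than for *pho-2* or *pho-5*. The call was lost without any one of the wild-type replicates (limma adjusted p from 0.085 to 0.11, ratios from 2.12 to 2.33) and without Δ*nuc-1* replicate 2 (ratio 1.75). *dpa-2* (NCU00597), the deoxyribose-phosphate aldolase gene, rose from 29.2, 19.6 and 22.1 in wild type to 54.9, 86.0 and 172 in the mutant, 4.41-fold (limma log2 fold change 1.96, standard error 0.36, adjusted p = 0.007) and 2.98-fold without Δ*nuc-1* replicate 3. *rbg-27* (NCU02675), which encodes a cyclase of RNA 3′-phosphate ends, rose from 3.29, 0.894 and 1.52 to 9.32, 7.61 and 29.6, 8.16-fold (limma log2 fold change 2.35, standard error 0.48, adjusted p = 0.01). Without Δ*nuc-1* replicate 3 it was 4.46-fold higher and under 10 TPM, so that its calls at both limits ended.

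In sugar phosphate and nucleotide sugar metabolism, 2 of 11 genes were called lower at 4-fold (0.821% over all genes) and 4 at 2-fold (3.45%). At 2-fold 0 were higher (4.57% over all genes). Experiment 1 called 9 of the 11 higher by starvation. Of all 304 starvation-induced genes tested here, 17.8% were lower at 4-fold and 40.5% at 2-fold. *gae-1* (NCU08549), which is predicted to encode an epimerase of UDP-galactose, had 45.0, 23.1 and 18.9 rescaled TPM in wild type and 9.63, 3.78 and 5.42 in Δ*nuc-1*. It was 4.62-fold lower (limma log2 fold change -2.03, standard error 0.36, adjusted p = 0.0065), or 3.34-fold without wild-type replicate 1 and 3.85-fold without Δ*nuc-1* replicate 2. The fructose bisphosphatase gene *fbp-1* (NCU04797) had 145, 75.7 and 96.0 in wild type and 28.1, 22.7 and 22.1 in the mutant, 4.35-fold lower (limma log2 fold change -2.03, standard error 0.23, adjusted p = 0.0013) and 3.54-fold lower without wild-type replicate 1, so that 0 of the 11 were called at 4-fold without that library. The phosphoketolase gene *phk-2* was 3.28-fold lower (limma adjusted p = 0.0025) and *nmr-3* 2.11-fold lower (limma adjusted p = 0.016); the ratio of *nmr-3* was 1.86 without wild-type replicate 1 and 1.83 without Δ*nuc-1* replicate 2, which ended its call. Not every gene of this group induced in Experiment 1 differed between the strains. NCU09906, which may act on UDP-sugars, was 19.9-fold higher by starvation in Experiment 1, and it had 34.3, 20.7 and 16.1 in wild type and 20.5, 21.5 and 26.6 in the mutant, with overlapping strains (limma adjusted p = 0.98).

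Genes of polyphosphate, the vacuolar store of phosphate, fell less. The genes *vtc-1*, *vtc-2* and *vtc-3* encode subunits of the vacuolar transporter chaperone complex, which makes polyphosphate. *vtc-3* (NCU08110) had 104, 105 and 93.6 rescaled TPM in wild type and 34.6, 32.5 and 34.5 in Δ*nuc-1*, 2.98-fold lower (limma log2 fold change -1.54, standard error 0.11, adjusted p = 0.0002). *vtc-2* was 2.23-fold lower (limma adjusted p = 0.0017) and *vtc-1*, with 333 ± 17.2 against 193 ± 15.5, was 1.73-fold lower (limma adjusted p = 0.0037), which passed the adjusted p and not the 2-fold limit. The 3 subunit genes had narrow groups that did not overlap. The predicted polyphosphate kinase gene NCU03546 was 2.25-fold lower (limma adjusted p = 0.0041). The paper links homologues of NCU03546 to the making of inositol heptakisphosphate, a molecule involved in regulating Pho4 in *S. cerevisiae*, so it may not belong to the vacuolar store. NCU03950, a homologue of vacuolar polyphosphate polymerases, was at 1.31 times the wild-type level (limma adjusted p = 0.11).

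Starvation also induced 15 transporter genes for sugars, ions and other substrates in the lists used here. All 15 had a log2 fold change below 0 in the mutant, and the list's median was -1.19 beside 0.00 over all genes tested. At 4-fold 2 were called lower (0.821% over all genes) and at 2-fold 4 (3.45%). Without the minimum of 10 TPM these counts were 4 and 9. Starvation-induced genes as a whole were similar: of the 304 tested, 290 lay below 0, with a median of -1.02. Of those 304, 17.8% were lower at 4-fold and 40.5% at 2-fold. The P-type ATPase gene *ph7* (NCU08147) had 24.4, 17.5 and 14.4 rescaled TPM in wild type and 4.37, 3.91 and 3.57 in Δ*nuc-1*, 4.74-fold lower (limma log2 fold change -1.97, standard error 0.20, adjusted p = 0.001). The rhamnose transporter gene *sut-28* (NCU05897) had 66.8, 37.3 and 40.1 in wild type and 12.0, 10.9 and 9.10 in the mutant, 4.51-fold lower (limma log2 fold change -2.03, standard error 0.23, adjusted p = 0.0012) and 3.63-fold lower without wild-type replicate 1. Of 7 transcription factor genes activated by starvation, 5 could be tested and 0 were called, although *xlr-1* (0.300 of the wild-type level, limma adjusted p = 0.0076) and NCU01074 (0.311, limma adjusted p = 0.0051) were low in the mutant at under 10 TPM. By limma's adjusted p alone, 3 of the 5 were lower (11.4% over all genes) and 0 higher (11.3%). Of all 304 starvation-induced genes, 179 were lower by that rule and 2 higher. Activation of the transcription factor genes was called in Experiment 1, and Experiment 2 holds no 7 mM library.

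With each gene counted once and *nuc-1* left out, the lists of regulators, phosphatases, transporters, nucleases and metabolic genes held 68 tested genes. Of these, 22 were called lower at 4-fold (0.821% over all genes) and 2 higher (1.28%), and 31 were lower at 2-fold (3.45%). Their median log2 fold change was -1.16. Most of them, 51, were also called higher by starvation in Experiment 1, and of those 51, 26 were lower at 2-fold in the mutant, 0 were higher and 25 had no call. The lists were drawn up from what the study names as starvation genes, so their direction is not independent evidence.

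Several genes outside these lists also fell. NCU09968, on chromosome VI from 309546 to 315476 and without an annotation in the sources used here, had 46.02, 61.2 and 39.3 rescaled TPM in wild type and 0.307, 0.217 and 0.330 in Δ*nuc-1*. It was 171-fold lower (limma log2 fold change -5.25, standard error 0.19, adjusted p = 2.0e-06), and its 0 mM to 7 mM ratio in Experiment 1 was 0.781. The formate dehydrogenase gene *fdh* (NCU03813) had 693, 252 and 262 in wild type, replicate 1 being more than 2-fold above the others, and 13.5, 17.3 and 17.8 in the mutant, 24.8-fold lower (limma log2 fold change -4.39, standard error 0.35, adjusted p = 0.00027). NCU07449 was 42.4-fold lower (wild type 22.98, 7.80 and 7.48, Δ*nuc-1* 0.271, 0.301 and 0.331; limma log2 fold change -3.22, standard error 0.38, adjusted p = 0.0014), and without wild-type replicate 1 it was still 25.4-fold lower but under 10 TPM. *mbl-5* (NCU07133), of the metallo-β-lactamase superfamily, had 22.6, 11.6 and 15.9 in wild type and 1.41, 1.30 and 1.94 in the mutant and was 10.8-fold lower (limma log2 fold change -2.76, standard error 0.25, adjusted p = 0.00047).

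Some of the lower genes were direct neighbours, named here after their values were seen. NCU09631 and NCU09630 lie 868 bp apart on chromosome II, and NCU09630 had 67.6, 25.0 and 36.3 rescaled TPM in wild type and 2.48, 1.07 and 1.01 in Δ*nuc-1*, 28.3-fold lower (limma log2 fold change -4.06, standard error 0.36, adjusted p = 0.00043). The LysM domain gene NCU07486 and its neighbour NCU07485, 422 bp apart on chromosome I, were 40.2-fold and 13.5-fold lower (limma adjusted p = 0.00037 and 1.6e-05). Without wild-type replicate 1, NCU07486 was 33.1-fold lower and under 10 TPM, so that its call ended. NCU10039, 145 bp from *gdp-1*, was 7.27-fold lower (limma adjusted p = 0.0011), and 5.94-fold lower but under 10 TPM without wild-type replicate 1, which ended its call. Across the genome the 66 lower genes (0.821% of those tested) were spread over the 7 nuclear chromosomes. Among them were 6 of 1016 genes tested on chromosome III, 15 of 2032 on chromosome I and 10 of 804 on chromosome VII. Of 21 mitochondrial genes tested, 0 were called (2 had an unadjusted limma p under 0.05, 36.2% over all genes).

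Experiment 1, which shares no library with this comparison, gives each gene its own response of wild type to starvation. The paper lists it with another sequencing centre, instrument and read length than Experiment 2. The authors tested differences only among samples that shared a centre and platform, and fold changes of the experiments are set side by side here with that limit. Of the 66 genes lower in the mutant, 54 (81.8%) were called as induced by starvation (3.75% of the 8396 genes tested there) and 0 as lowered. The other 12 include *nuc-1*, *nuc-2*, *pho-7* and NCU09968. Read from the starvation list, the 54 are 17.8% of the 304 induced genes that could be tested here (0.821% over all genes). At 2-fold, 123 of those 304 (40.5%) were lower in the mutant (3.45% over all genes) and 2 were higher (4.57%). The other 179 had no call at 2-fold (7393 of 8037 over all genes). Induction was called in Experiment 1, and Experiment 2 holds no 7 mM library. A gene without a call may therefore not have been induced in the wild type used here. For *tah-1*, starved wild type had 4.39 rescaled TPM here and 42.2 in Experiment 1. For *pho-2* the means were 2888 and 3822, with each experiment rescaled on its own. The median log2 fold change of the 304 was -1.02, beside 0.00 over all genes. Wild-type replicate 1 was the highest wild-type library for 253 of the 304 (2879 of 8037 over all genes). Without it, 33 of the 304 were called lower at 4-fold. This alternative and the others on counts within lists were chosen after seeing the data.

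Genes that starvation lowered were mostly higher in the mutant. Of the 103 genes higher in Δ*nuc-1*, 95 (92.2%) were called lower by starvation in Experiment 1 (3.59% of the genes tested there). These 95 are 31.7% of the 300 lowered genes tested here (1.28% over all genes). At 2-fold, 192 of the 300 (64.0%) were higher in the mutant (4.57% over all genes) and 0 were lower (3.45%). The median log2 fold change of the 300 was 1.503. Δ*nuc-1* replicate 3 was the highest mutant library for 275 of the 300 (3516 of 8037 over all genes). Without it, 13 of the 300 were called higher at 4-fold, without wild-type replicate 3 63 were, and with TPM as deposited 57 were.

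**Figure D3:**
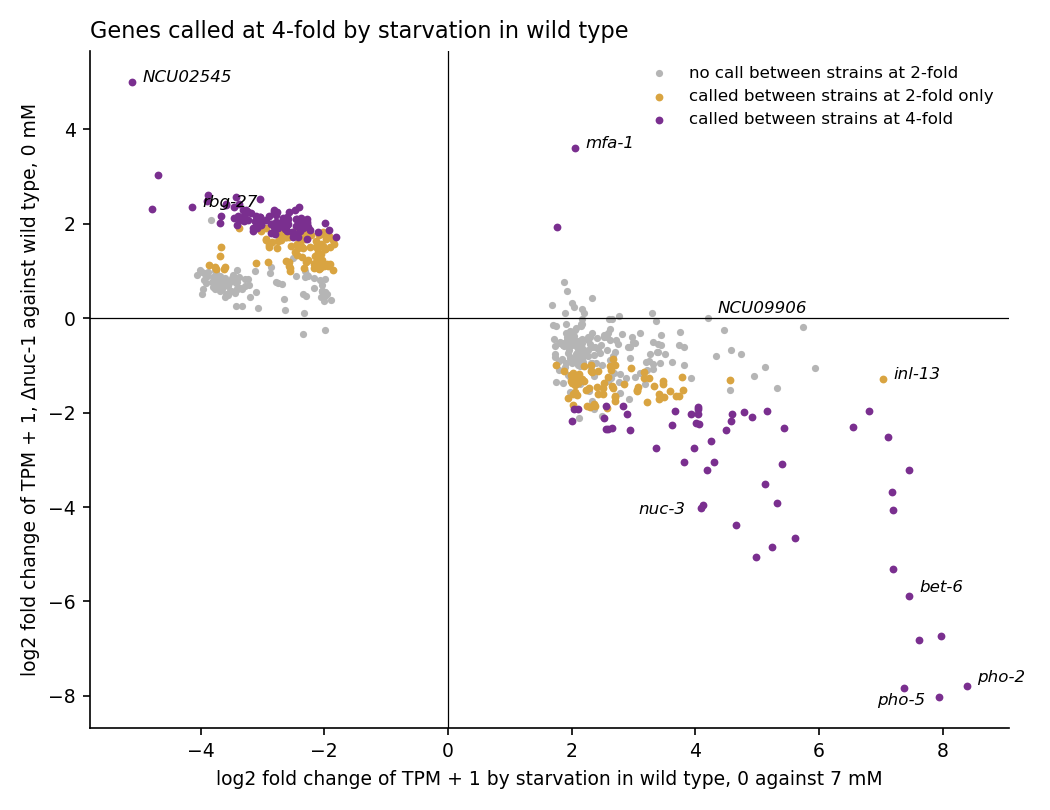
Genes called at 4-fold by starvation in Experiment 1, with the log2 fold change of TPM + 1 at 0 mM against 7 mM in wild type on the horizontal axis and that of Δ*nuc-1* against wild type at 0 mM on the vertical axis. *pho-5*, *pho-4* and *pho-2* lie lowest, at the right, *inl-13* and NCU09906 stay near the middle, *mfa-1* stands apart among the induced genes, and most genes lowered by starvation lie above 0; the experiments share no library.

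NCU02545 had the largest ratio among the genes that rose in Δ*nuc-1*. NCU02545 and its neighbour NCU02546 lie 146 bp apart on chromosome I and were both called. NCU02545 had 0.135, 0.118 and 0.298 rescaled TPM in wild type and 17.6, 40.4 and 70.7 in the mutant, where the libraries spread about 4-fold and all lay far above wild type (233-fold). NCU02546 had 32.9, 31.6 and 22.7 in wild type and 83.8, 119 and 277 in the mutant, 5.50-fold higher (limma adjusted p = 0.0054) and 3.48-fold without Δ*nuc-1* replicate 3. NCU03092, annotated as a nuclear localization sequence binding protein, rose from 70.9, 44.7 and 36.1 to 187, 383 and 902, 9.70-fold (limma log2 fold change 3.02, standard error 0.50, adjusted p = 0.0049). For all 3 genes mutant replicate 3 was the highest library and mutant replicate 1 the lowest, with every mutant library above wild type.

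Fibrillarin and NOP58 are core proteins of the small nucleolar particles that modify ribosomal RNA. The fibrillarin gene NCU03702 had 147, 119 and 115 rescaled TPM in wild type and 403, 535 and 869 in Δ*nuc-1*, 4.74-fold higher (limma log2 fold change 2.17, standard error 0.26, adjusted p = 0.0015) and 3.69-fold without Δ*nuc-1* replicate 3. The *nop-58* gene NCU03396 had 74.2, 89.4 and 63.4 in wild type and 236, 333 and 637 in the mutant, 5.31-fold higher (limma log2 fold change 2.28, standard error 0.32, adjusted p = 0.0028) and 3.75-fold without that library. For the RNA helicase genes NCU11175 (*drs-1*) and NCU09349 (*has-1*), whose yeast namesakes act in assembly of the ribosomal subunits, the ratios were 5.72 and 5.68 (limma adjusted p = 0.0045 and 0.0043). Without Δ*nuc-1* replicate 3 they were 3.97 and 3.79. NCU03561, without an annotation here, had one of the largest gains in level, from 117, 124 and 152 to 456, 639 and 919.9 (5.14-fold, limma log2 fold change 2.30, standard error 0.24, adjusted p = 0.001), and kept its call in every repeat with a library left out. NCU07547, annotated as the 60S acidic ribosomal protein P0, rose from 36.9, 19.3 and 17.6 to 83.9, 126 and 229, 5.94-fold (limma log2 fold change 2.48, standard error 0.38, adjusted p = 0.0037). NCU07714 shows the weak end of the calls: it was 10.4-fold higher with wild type at 1.13, 5.91 and 0 and the mutant at 4.35, 21.9 and 46.7 (limma adjusted p = 0.043), and the call ended without wild-type replicate 1 or 3 or Δ*nuc-1* replicate 2 or 3 (limma adjusted p from 0.12 to 0.14).

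**Figure D4:**
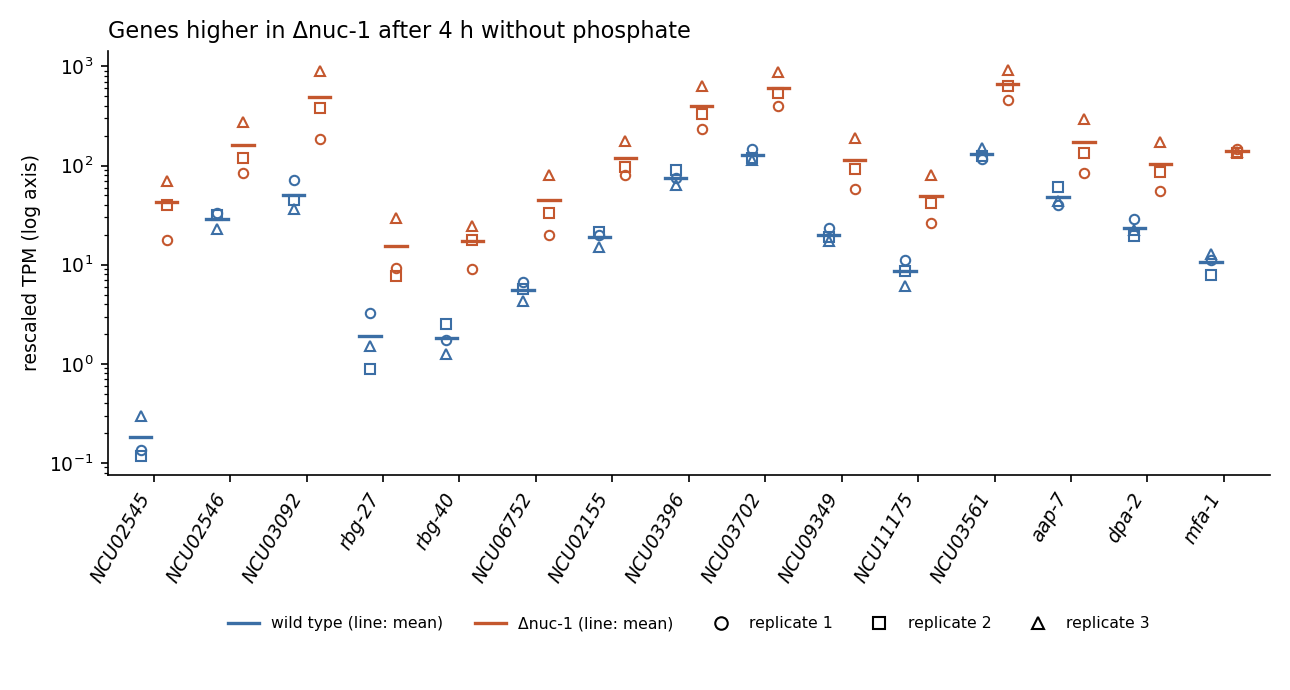
Rescaled TPM on a log axis of 15 genes higher in Δ*nuc-1*, by library (circle, square and triangle for replicates 1, 2 and 3) with a line at the mean of 3 libraries, wild type in blue and Δ*nuc-1* in orange. The triangle of Δ*nuc-1* replicate 3 is the highest mutant point for every gene shown except *mfa-1*, whose mutant libraries lie close together (133 to 147).

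To describe growth genes as groups, lists were matched on the annotation names that were readable, which cover part of the genome only. Making ribosomes is costly in phosphate, since ribosomal RNA holds much of the phosphate of a growing cell. Among 20 genes of ribosome biogenesis, 19 rose by 2-fold (4.57% over all genes) and 10 by 4-fold (1.28% over all genes), with a median log2 fold change of 1.83. The 4-fold count was 0 without Δ*nuc-1* replicate 3, 17 without Δ*nuc-1* replicate 1 and 4 with TPM as deposited. Together they made up 0.122, 0.0990 and 0.0969% of the wild-type libraries and 0.207, 0.312 and 0.502% of the Δ*nuc-1* libraries, so that the share in mutant replicate 3 was more than 2-fold that in mutant replicate 1. Of 11 genes of RNA polymerases I and III, which transcribe ribosomal RNA and transfer RNA, 7 rose by 2-fold (4.57% over all genes) and the median was 1.15. The highest of these was the RPA1 gene NCU01638 (3.90-fold, limma adjusted p = 0.0059).

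The ribosomal proteins themselves differed by a smaller factor at a far higher level. The 80 cytosolic ribosomal protein genes, NCU07547 included, summed to 108862, 136521 and 179697 rescaled TPM in wild type and 228792, 222497 and 260804 in Δ*nuc-1*, or 12.6, 15.1 and 17.2% and 22.3, 21.4 and 22.8% of the libraries. The mutant libraries lay above all wild-type libraries. The adjusted p was under 0.05 for 53 of the 80 in the direction of the mutant (11.3% over all genes), and the median log2 fold change was 0.75. Without wild-type replicate 1 or 2 or Δ*nuc-1* replicate 2 or 3 that count was 25, 18, 24 and 20. Few genes reached the fold limits, 6 at 2-fold (4.57% over all genes) and 1 at 4-fold (1.28%), shares near those of all genes. The 2-fold count was 3 without Δ*nuc-1* replicate 3 or wild-type replicate 1, 10 without Δ*nuc-1* replicate 1, 33 without wild-type replicate 3 and 1 with TPM as deposited. In Experiment 1 the same 80 genes had a median of -3.54 by starvation, and 68 were called lower.

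Of the other housekeeping lists, those of mitochondrial ribosomal proteins and translation factors had most members higher in the mutant by adjusted p. The 20 mitochondrial ribosomal protein genes tested had a median log2 fold change of 0.65, and the adjusted p was under 0.05 for 14 of them (11.3% over all genes), or 9 without wild-type replicate 1. At 2-fold 3 were called higher (4.57% over all genes), and 0 with TPM as deposited. The 24 translation factor genes had a median of 0.61, with 16 past the adjusted p (11.3% over all genes). That count was 8 to 10 without wild-type replicate 1 or 2 or Δ*nuc-1* replicate 2 or 3 or with TPM as deposited. At 2-fold 2 of the 24 were called higher (4.57% over all genes), and 0 to 4 with a library left out. For aminoacyl-tRNA synthetases (17) the median was 0.21, and the only call was the lysyl-tRNA synthetase gene NCU00931 (3.93-fold higher, limma adjusted p = 0.0038). Of 4 histone genes and 3 vacuolar ATPase genes 0 were called at 2-fold (8.01% over all genes). By limma's unadjusted p under 0.05 the counts were 0 and 1 (36.2% over all genes). The 6 proteasome genes all had values below 0, with a median of -0.53. At 2-fold 1 was called lower (3.45% over all genes), the regulatory subunit gene NCU11053 (2.13-fold, limma adjusted p = 0.0018).

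**Figure D5:**
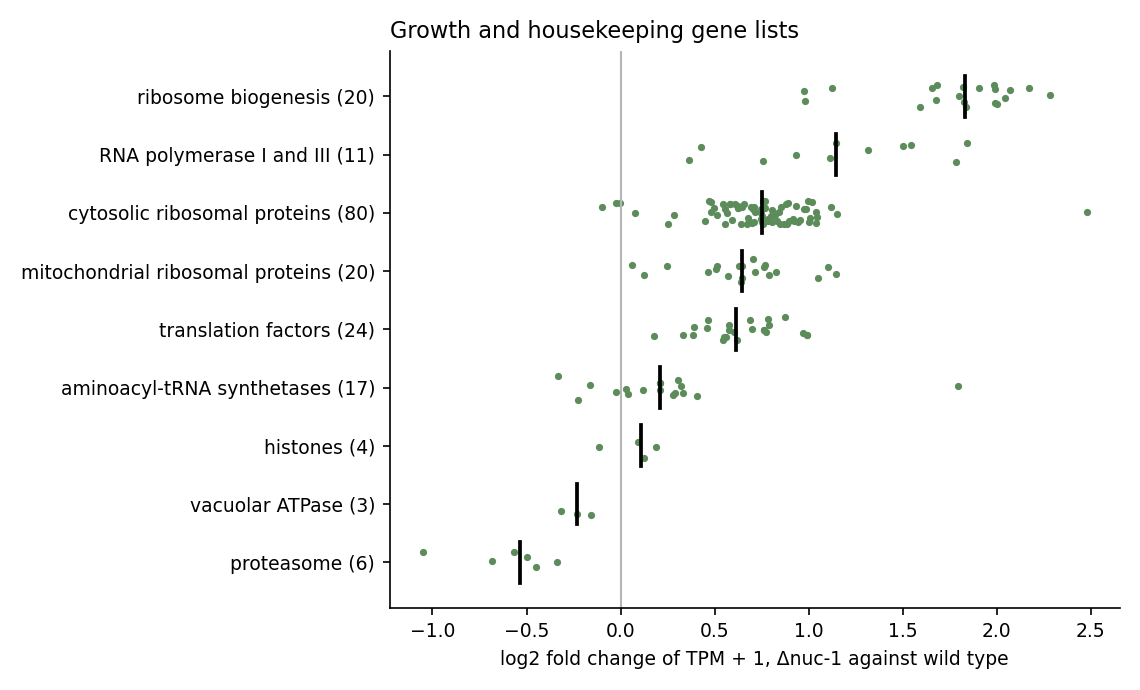
Log2 fold change of TPM + 1 (Δ*nuc-1* against wild type) of each gene in 9 growth and housekeeping lists, 1 point per gene, with the number of genes in brackets and a black bar at the median. The medians run from 1.83 for ribosome biogenesis and 1.15 for RNA polymerases I and III to -0.53 for the proteasome, and points within a list share libraries and scaling.

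The study also mapped promoter sites bound by NUC-1 with DAP-seq, in which protein made outside the cell binds sheared genomic DNA. The paper cautions that NUC-1 may not regulate all genes with such sites in living cells. Binding in the starved mycelium was not measured. Of 379 genes listed as bound, 323 were tested here. At 2-fold, 28 of the 323 (8.67%) were called, 14 lower and 14 higher, against 644 (8.01%) of all genes, and the median log2 fold change of the bound genes was 0.01. At 4-fold 8 were lower (0.821% over all genes) and 3 higher (1.28%), and the higher count was 0 without Δ*nuc-1* replicate 3, 5 without Δ*nuc-1* replicate 1 and 1 with TPM as deposited. 27 of the 28 are genes that the study picked as bound and regulated from these same libraries, so their direction is not independent evidence. The remaining one is the riboflavin synthesis gene *rib-3* (NCU01449), which had 276, 181 and 207 rescaled TPM in wild type and 68.2, 66.4 and 70.6 in Δ*nuc-1*, 3.23-fold lower (limma log2 fold change -1.66, standard error 0.16, adjusted p = 0.00078). Bound genes that fell include *pho-2*, *pho-3*, *gdp-1*, *pho-7*, *uc-8*, *mbl-5*, NCU07485 and NCU07486. Bound genes that rose include *rbg-27*, *dpa-2*, NCU00059, which encodes a predicted pre-rRNA processing protein (4.10-fold, limma adjusted p = 0.0077; 3.78 without wild-type replicate 2, 3.61 without wild-type replicate 3 and 3.13 without Δ*nuc-1* replicate 3), and the amino acid permease gene *aap-7* (3.55-fold, limma adjusted p = 0.02). The 2-fold call of *aap-7* ended without wild-type replicate 1 (3.28-fold, limma adjusted p = 0.071) or 3 (3.41-fold, limma adjusted p = 0.068).

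Genes of mating type were examined because the strains differ there. *mat A-1* (NCU01958), present only in *mat A* nuclei, had 6.63, 1.52 and 3.42 rescaled TPM in wild type and 0.0625, 0 and 0 in the mutant, which follows the mating types of the strains, and its level was too low for a call. *mfa-1* (NCU16992), which encodes the pheromone precursor of *mat a* strains, had 11.2, 7.87 and 12.9 in wild type and 147, 133 and 138 in Δ*nuc-1*, both narrow groups. It was 13.1-fold higher (limma log2 fold change 3.61, standard error 0.17, adjusted p = 1.2e-05) and one of 2 genes higher both in the mutant and by starvation (5.76-fold in Experiment 1). The other was NCU08635, whose strains overlapped and whose call ended without wild-type replicate 1 or 2 or Δ*nuc-1* replicate 2 or 3 (limma adjusted p from 0.12 to 0.14). The genes on either side of *mfa-1*, named after their values were seen, went opposite ways: the cyanase gene NCU01258 fell from 734, 364 and 440.6 to 97.0, 90.7 and 97.6 (5.39-fold, limma adjusted p = 0.00081). On the other side NCU01257 rose 4.44-fold (limma adjusted p = 0.0059), or 3.81-fold without wild-type replicate 3 and 3.25-fold without Δ*nuc-1* replicate 3. Within 50 kb of *mat A-1*, 28 genes were tested, of which 1 was higher (4.57% over all genes) and 2 were lower (3.45%) at 2-fold. The lower count was 1 without wild-type replicate 1 or 3 or Δ*nuc-1* replicate 3, and the higher count was 2 without wild-type replicate 3. The part of mating type in these results was not tested.

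Markers of asexual development also differed between the strains. Mycelium can hold aerial hyphae and conidia, which express conidiation and carotenoid genes. Of 8 conidiation genes, 7 were tested, 2 were lower at 4-fold (0.821% over all genes), 3 at 2-fold (3.45%) and 0 were higher at either. Experiment 1 called 4 of the 7 higher by starvation, among them *eas*, *con-10* and *con-8*. Of all 304 starvation-induced genes tested here, 17.8% were lower at 4-fold and 40.5% at 2-fold. The hydrophobin gene *eas* (NCU08457) had 72.0, 48.8 and 51.2 rescaled TPM in wild type and 9.83, 6.74 and 11.2 in Δ*nuc-1*, 6.18-fold lower (limma log2 fold change -2.51, standard error 0.21, adjusted p = 0.00038). *con-10* (NCU07325) was 6.43-fold lower (wild type 19.6, 5.56 and 7.43, mutant 1.36, 1.85 and 1.85; limma log2 fold change -1.96, standard error 0.38, adjusted p = 0.0087), and without wild-type replicate 1 it was 3.85-fold lower and under 10 TPM, so that its calls ended. *con-8* was 2.01-fold lower (limma adjusted p = 0.034), a 2-fold call lost without wild-type replicate 2 (2.16-fold, limma adjusted p = 0.062) or 3 (1.59-fold) and without Δ*nuc-1* replicate 2 (1.91-fold) or 3 (1.90-fold). Not every marker was lower: *csp-1* had 41.5, 38.2 and 38.3 in wild type and 52.2, 52.5 and 51.3 in the mutant, 1.32-fold higher without overlap (limma adjusted p = 0.037, and over 0.05 with any library left out), and *csp-2* had a ratio of 1.01 (limma adjusted p = 0.91). Summed over the list, the level was 194.9 to 234 rescaled TPM in wild type and 138.6 to 155 in the mutant, and no conidiation gene was at 0 in any library. The carotenoid gene *al-1* (NCU00552), also called higher by starvation, was 2.83-fold lower (limma adjusted p = 0.0058). The 3 carotenoid genes summed to 671 to 887 in wild type and 361 to 499 in the mutant. Both sums were highest in wild-type replicate 1, the library that was also highest for most induced genes, and their part in the losses above was not tested.

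The control genes *act* (actin) and *bml* (β-tubulin) had ratios of 0.896 and 1.22 (limma adjusted p = 0.48 and 0.22). Among 6 regulators of other nutrients and pH, 0 were called at 2-fold (8.01% over all genes). The carbon catabolite repressor gene *cre-1* was at 0.640 of the wild-type level (limma adjusted p = 0.007), and it was the only one of the 6 with an adjusted p under 0.05 (22.8% over all genes).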

How the data were processed

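For all 18 poly(A) libraries the authors mapped the reads with Salmon version 1.4.0 to transcripts of the *N. crassa* genome, version 12, and deposited TPM. Each library's TPM sum to 1000000.0, so depth is unknown, no counting interval is given, and precision is described by the spread of 3 libraries (median SD of log2 values 0.193 for wild type, 0.176 for Δ*nuc-1*). The authors tested counts with DESeq2; counts were not used here. Samples were grouped by their labels, and gene positions were taken from that genome version's annotation, where 9773 of 9774 genes were found.

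Transcripts were summed per gene (821 genes had several), and each of the 6 libraries was divided by its median-of-ratios factor (0.875 to 1.15). Genes averaging 1 TPM or more in one strain were fitted with limma version 3.58.1 (R version 4.3.3; lmFit, eBayes with trend) on log2(TPM + 1), which understates changes of low genes, with Benjamini-Hochberg adjustment over the 8037 genes. Calls required a 4-fold (or 2-fold) difference of mean rescaled TPM, 10 TPM or more in one strain's mean, and an adjusted p under 0.05. Experiment 1 was fitted the same way within its own 6 libraries. The procedure was run on simulated data with independent noise for each gene. Those data held no shift shared by the genes of a library, so they do not bear on calls that rest on single libraries. Summaries and plots used Python version 3.11.15, NumPy version 2.4.6, pandas version 2.3.3 and matplotlib version 3.10.9.

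Genes named were those of the phosphate, marker and bound-gene lists, the 15 called genes with the largest ratio and the 5 with the largest difference in each direction, the neighbours of *nuc-1*, and the extremes of each annotation list (3 highest, 2 lowest); the text gives a part of these. The members and lists were chosen with earlier results of these data known. Annotation lists were matched on the gene names of the study's own annotation, of which a part was readable, in place of reference product names as first planned. Alternatives covered scaling (TPM as deposited, upper quartile), the pseudocount (0.1), the filter and the TPM minimum (each dropped), limma's own fold change as threshold, a robust spread, a joint fit of the 18 libraries, a replicate block, and leaving out each library.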

Additional observations from a re-analysis of the deposited data

How the results depend on the processing

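Of the 92 gene values tracked, 52 kept direction and call under all 15 alternatives. Of the counts over all genes and within the larger lists, those below moved by over 1.5 times, and the cause was not tested. With each library left out, the 4-fold calls ranged from 86 to 223 in all and from 14 to 151 for higher genes, the lowest without Δ*nuc-1* replicate 3; the higher count was also 63 with TPM as deposited and 63 with the threshold on limma's fold change. Counts within lists, put under every alternative after seeing the data, are given with a library left out first. Starvation-induced genes lower at 4-fold numbered 33 to 63, against 54. Starvation-reduced genes higher at 4-fold numbered 13 to 135, 57 with TPM as deposited and 60 with the threshold on limma's fold change, against 95. Ribosome biogenesis genes higher at 4-fold numbered 0 to 17, 4 and 5 in the same order, against 10, and NUC-1 bound genes higher at 4-fold 0 to 5, 1 and 1, against 3. Cytosolic ribosomal protein genes higher at 2-fold numbered 3 to 33, and 1 with TPM as deposited, against 6. Translation factors higher at 2-fold numbered 0 to 4, 0 with TPM as deposited, 0 with the threshold on limma's fold change and 1 with one fit over all libraries, against 2. Mitochondrial ribosomal protein genes higher at 2-fold numbered 2 to 4, and 0 with TPM as deposited, against 3. Sugar phosphate genes lower at 4-fold numbered 0 to 2, against 2, and conidiation genes 1 to 2, and 1 with the threshold on limma's fold change, against 2. Directions turned only for uncalled genes near 0. The log2 fold change of *mdk-1* was -0.18 with TPM as deposited, -0.02 with one fit over all libraries and -0.03 to 0.04 with a library left out. That of NCU09906 was -0.17, -0.01 and -0.21 to 0.30 in the same order, and that of *csp-2* was -0.14 with TPM as deposited and -0.12 to 0.29 with a library left out. The replicate numbers did not pair the samples (correlations of same-numbered deviations -0.007, -0.014 and -0.069), and as a block they gave 98 higher and 66 lower genes at 4-fold and 332 and 275 at 2-fold. By single genes, 2 of the tracked calls were weaker under the block. Depth is unknown, 3 libraries a strain limit the precision, and low genes are damped by the added 1.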

Other observations

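Some enzymes outside the phosphate lists, named after their values were seen, lost transcript in Δ*nuc-1* together with *fdh* and the cyanase gene. The formamidase gene NCU02361, whose product releases formate and ammonia from formamide, had 602, 309.9 and 299 rescaled TPM in wild type and 74.7, 68.8 and 79.4 in the mutant, 5.43-fold lower (limma adjusted p = 0.0011). Wild-type replicate 1 was the highest library for this gene, as it was for *fdh* and NCU01258, and all 3 kept their 4-fold calls without it. The catalase gene *cat-2* had 55.4, 21.2 and 24.7 in wild type and 7.71, 6.77 and 5.05 in the mutant, 5.19-fold lower (limma adjusted p = 0.0043), and 3.52-fold lower without wild-type replicate 1. Starvation raised *cat-2* 33.8-fold in Experiment 1, NCU01258 6.04-fold and NCU02361 2.71-fold.

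A few transporter genes of low level separated the strains without a call, since they stayed under 10 TPM in both. The L-arabinose transporter gene *lat-1* had 3.77, 1.36 and 2.41 rescaled TPM in wild type and 0.316, 0.351 and 0.172 in Δ*nuc-1* (limma adjusted p = 0.011), and NCU09027, which has homology to nicotinic acid transporters, had 3.00, 1.36 and 1.68 and 0.331, 0.263 and 0.347 (limma adjusted p = 0.016).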
